A study of Mus musculus with 42 samples.

Results

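The MHC class I pathway was followed in MC38 tumors through 10 genes chosen by name: H2-K1, H2-D1, B2m, Tap1, Tap2, Tapbp, Psmb8, Psmb9, Psmb10 and Nlrc5. All 10 were found among the 26811 genes of the count table, and all 10 passed the filter on low counts that left 16932 genes for testing. MC38 is a colon carcinoma line from C57BL/6 mice, and its cells were injected under the skin of female CC075/UncJ x C57BL/6J F1 mice, called CC75xB6, aged 8 to 12 weeks. Bulk poly(A) RNA was sequenced from 42 tumors, which the labels call biological replicates, to ask how blocking GM-CSF or the IL-2 receptor beta chain before anti-PD-1 changes what anti-PD-1 does to the tumor. The blocking antibodies, 100 µg of aGMCSF or 200 µg of aIL2RB, or isotype antibodies in their place, were injected every 3 days, beginning at engraftment, while tumors grew to 75 to 110 mm3. Then 200 µg of aPD1, or of its isotype control, was given once, and 48 h later the tumors were removed. Both blocking antibodies were withheld from 5 isotype tumors and 6 aPD1 tumors, 9 tumors were aPD1 + aGMCSF, 11 were aPD1 + aIL2RB, and 11 were aPD1 + aGMCSF + aIL2RB, called the double blockade. No group received a blocking antibody without aPD1, so blockade can be read only on top of aPD1. All tumors came from 1 tumor line and 1 host cross.

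Class I molecules show peptides from inside a cell to CD8 T cells. The proteasome cuts cytosolic proteins, and interferon replaces its 3 constitutive catalytic subunits by the immunoproteasome subunits encoded by Psmb8, Psmb9 and Psmb10. The transporter formed by Tap1 and Tap2 carries the peptides into the endoplasmic reticulum, and tapasin, the product of Tapbp, holds empty class I molecules at the transporter while they are loaded. H2-K1 and H2-D1 encode the classical heavy chains of the mouse, and B2m encodes beta-2-microglobulin, the light chain that every class I molecule needs to reach the cell surface. NLRC5 is a transactivator, itself induced by interferon, that acts at promoters of class I genes through the factors bound to their SXY module. In a tumor the pathway is carried by cancer cells and by infiltrating leukocytes alike, so the bulk level is a sum over both.

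Totals per tumor ranged from 7155486 to 24101674 counts with a median of 20215382, and the lowest total belonged to double blockade replicate 4. The members were well covered at this depth, from at least 469 counts for Psmb9 to at least 10163 counts for B2m in every tumor. Levels are given as CPM, counts scaled to a common library size after TMM normalization. The tumors fell into 2 sets along their replicate numbers, a first set of 22 and a second set of 20 tumors, which neither the labels nor the methods name. Each group has tumors in both sets, and results within each set are given where the calls were made or differed. The defining epithelial markers of a carcinoma were low: 5 of the 7 epithelial genes measured had medians of at most 0.554 CPM and no tumor above 7.97 CPM, with Epcam at 0 in 9 tumors, Krt8 in 10, Krt18 in 10, Krt19 in 7 and Krt20 in 24. Of the rest, Cdh1 was at most 8.69 CPM. Shisal2b, the gene by which the study marked MC38 cells in its single-cell data, was at 8.80 to 31.3 CPM. Leukocyte markers moved with the groups. The summed level of 7 T and NK cell genes, Cd3e, Cd3d, Cd8a, Cd8b1, Nkg7, Trac and Gzmb, was 57.3 to 65.8 CPM in isotype, 82.9 to 188 in aPD1, 32.3 to 82.0 in aPD1 + aGMCSF, 3.83 to 40.7 in aPD1 + aIL2RB and 0.719 to 89.1 CPM under double blockade. The summed level of 4 pan-leukocyte genes was 477 to 560, 636 to 1152, 469 to 630, 339 to 579 and 312 to 889 CPM in the same order. A difference in bulk RNA cannot tell fewer cells of a type from less RNA per cell, and the part of these markers in the class I results was not tested.

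Of the 10 genes, 7 lie in or next to the H2 complex on chromosome 17 of the GRCm38 (mm10) build. H2-K1 (ENSMUSG00000061232) spans 33996017 to 34000347 on the minus strand and H2-D1 (ENSMUSG00000073411) spans 35262730 to 35267499 on the plus strand. Between them lies the processing cluster, with Psmb9 from 34181987 to 34187764 on the minus strand, then Tap1 from 34187553 to 34197225, Psmb8 from 34197721 to 34201454 and Tap2 from 34203527 to 34216321 on the plus strand. Psmb9 and Tap1 are transcribed away from each other and their annotated ends overlap by 212 bases. Tapbp lies at 33915899 to 33929292 of the same chromosome. B2m is at 122147686 to 122153083 on chromosome 2, and chromosome 8 holds Nlrc5 at 94434356 to 94527272 and Psmb10 at 105935735 to 105938444. The counts are sums over founder haplotypes, so alleles of the tumor line and of the host were not told apart.

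Promoter sequences were searched for motifs of the factors known to act on class I genes. RefSeq sequence of GRCm38.p6 was at hand for 8 of the 10 genes, and not for Tap2 and Nlrc5. Upstream windows of 250 bases were searched on both strands for an interferon response element of the letters AANNGAAA, a GAS element TTCNNNGAA, a kappa B element, the X2 core TGACG and the CCAAT box. The kappa B element was GGG and TT with 2 free bases between them, then 1 free base and CC. H2-K1, H2-D1 and B2m each held a match to the interferon response element, the kappa B element, the X2 core and the CCAAT box. In all 3 the X2 core was followed, 20 bases on, by an inverted CCAAT box (ATTGG). The 30 bases from the X2 core to the inverted CCAAT box are shown because this spacing is common to the light chain and both heavy chains. Capitals mark the X2 core and the inverted CCAAT box, read 5′ to 3′ along the gene.

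H2-K1, minus strand, chr17:34000359-34000388: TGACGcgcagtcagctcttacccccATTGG

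H2-D1, plus strand, chr17:35262993-35263022: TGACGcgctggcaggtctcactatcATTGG

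B2m, plus strand, chr2:122147609-122147638: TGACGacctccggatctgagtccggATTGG

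The stretch ended 12 bases before the more upstream RefSeq start of H2-K1, 72 bases before that of H2-D1 and 49 bases before that of B2m. The 2 heavy chain stretches were identical at 23 of 30 bases. The B2m stretch matched that of H2-K1 at 13 bases and that of H2-D1 at 12, so outside the capitals it shared few positions with either. Of 32851 RefSeq promoter windows of this length, 30 (0.0913%) held the pair at this spacing. The single motifs were common: the interferon response element matched in 21.3% of windows, the GAS element in 7.02%, the kappa B element in 4.11%, the X2 core in 17.8% and the CCAAT box in 33.8%. The last 150 bases before the starts of H2-K1 and B2m show how the motifs are ordered. Capitals mark, in H2-K1, the kappa B element, the interferon response element on the opposite strand, the X2 core and the inverted CCAAT box. In B2m they mark the interferon response element, the kappa B element on the opposite strand, the X2 core and the inverted CCAAT box.

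H2-K1, minus strand, chr17:34000348-34000497: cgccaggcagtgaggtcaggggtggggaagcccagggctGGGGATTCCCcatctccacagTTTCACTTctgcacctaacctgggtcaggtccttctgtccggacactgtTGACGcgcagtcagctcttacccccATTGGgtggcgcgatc

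B2m, plus strand, chr2:122147537-122147686: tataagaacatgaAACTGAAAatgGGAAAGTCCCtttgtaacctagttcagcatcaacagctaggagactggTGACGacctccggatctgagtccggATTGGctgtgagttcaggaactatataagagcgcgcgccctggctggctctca

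The kappa B element came first in H2-K1 and second in B2m, and the X2 core and inverted CCAAT box followed in both. Psmb8 held a GAS element and none of the other motifs. The region between Psmb9 and Tap1, which the 2 genes share as a promoter, held an X2 core and a CCAAT box, Tapbp held CCAAT boxes and Psmb10 held no match. These are matches of letters and not measured binding sites.

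**Figure D1:**
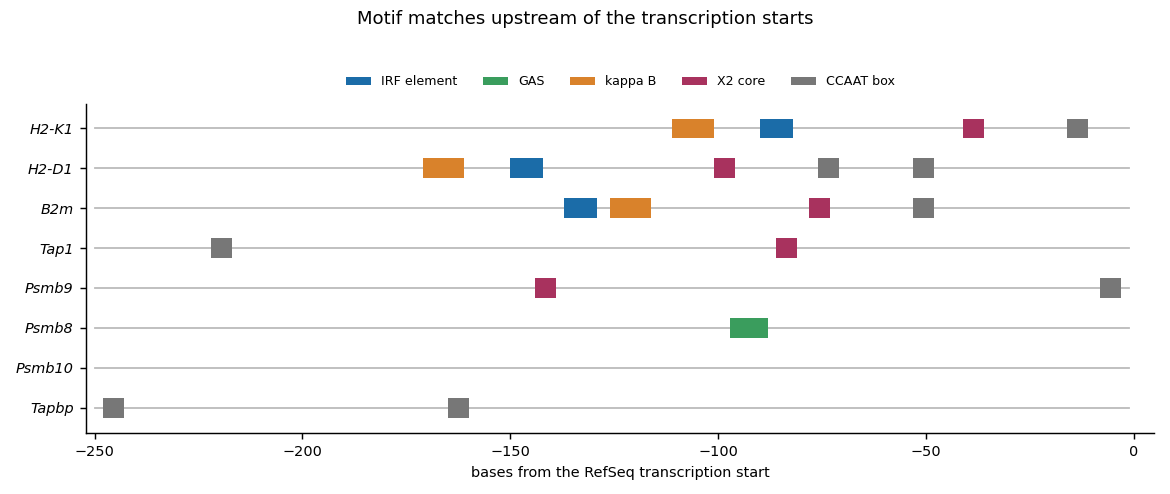
Motif matches in the 250 bases upstream of the RefSeq transcription start of 8 members. The horizontal axis gives the distance from the start in bases and each colored box a match on either strand. H2-K1, H2-D1 and B2m hold the X2 core with a CCAAT box downstream of it at the same spacing, and Psmb10 has no match.

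The light chain gene was the most abundant member per kilobase of exon. Over the 42 tumors B2m averaged 1632 ± 298 CPM per kb (SD), H2-D1 521 ± 99.7 and H2-K1 486 ± 109. The loading genes were lower, with Tapbp at 112 ± 8.96 CPM per kb, Tap2 at 42.2 ± 5.14 and Tap1 at 36.7 ± 11.0. Among the immunoproteasome genes Psmb8 averaged 79.1 ± 13.2 CPM per kb, Psmb10 63.7 ± 7.99 and Psmb9 18.2 ± 4.61, and Nlrc5 averaged 17.2 ± 6.49. The order was the same in the other groups but not in aPD1, where Nlrc5 at 26.9 ± 4.46 CPM per kb stood above Psmb9 at 23.6 ± 1.82, and Tap1 at 51.5 ± 7.13 above Tap2 at 45.5 ± 3.49 (n = 6). The neighbors H2-D1 and H2-K1, and Psmb9 and Nlrc5, differed by less than the SD of either gene between tumors, and Tap2 and Tap1 by less than the SD of Tap1 but not that of Tap2. The spread relative to the mean was widest for Nlrc5 and narrowest for Tapbp.

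The comparison of aPD1 with isotype asks what a single dose of anti-PD-1 does to the pathway within 48 h. No member passed the test, and the clearest difference was in the transactivator. The 5 isotype tumors had 138, 151, 151, 162 and 167 CPM of Nlrc5, and the aPD1 tumors had from 184 to 270 CPM with a median of 233. The groups did not overlap, as was so, in the higher direction, for 3.38% of all genes. The log2 fold change of Nlrc5 was 0.57 ± 0.27 (SE), with a 95% interval of 0.02 to 1.118 and an adjusted p of 0.19 by edgeR's quasi-likelihood test. Tap1 had 200, 204, 212, 235 and 280 CPM in isotype and 238 to 330 CPM, with a median of 275, in aPD1. Its groups overlapped through 1 isotype tumor, and the log2 fold change was 0.32 ± 0.21. H2-K1 stood at 1496, 1561, 1581, 1885 and 2015 CPM in isotype and at 1532 to 2029 in aPD1, with a median of 1763, so the aPD1 tumors spanned nearly the same range. The log2 fold changes of the other 7 members lay between -0.05 for Tap2 and 0.13 for B2m. The interval of H2-K1 ran from -0.25 to 0.36 and that of B2m from -0.13 to 0.38.

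Of the 10 members, 1 (Nlrc5) had an unadjusted p under 0.05, where 24.1% of all genes did, and 0 passed adjustment, where 8.71% did. DESeq2 called 0 members, and 0 had an unadjusted p under 0.05, where 23.9% of the genes it tested did. The median log2 fold change of the members was 0.07, against -0.0023 over all genes. Within the first set the fold change of Nlrc5 was 0.39 ± 0.30 and within the second 0.72 ± 0.27, and no member was called in either, where 0.00575% and 9.33% of genes were called higher. With only the isotype and aPD1 tumors in the fit, 1 member was called, against 6.77% of genes called higher. Markers of other cells differed between these groups at the same time. The summed level of 5 macrophage genes was 2057 to 2531 CPM in isotype and 2373 to 4595 in aPD1. That of 4 granulocyte genes was 9.88 to 13.6 and 17.03 to 42.9 with no overlap. Here and below that sum was mostly Csf3r, with a median of 11.2 CPM over the 42 tumors. S100a8 and S100a9 had medians of 0.211 and 0.261 CPM, and Retnlg was at 0 in 33 tumors. The 5 fibroblast genes summed to 822 to 1336 CPM in isotype and 877 to 2693 in aPD1. The 4 endothelial genes summed to 116 to 159.7 and 133 to 193 CPM. The summed level of 4 skeletal muscle genes was 0.140 to 21.5 in isotype and 0.344 to 606 in aPD1.

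**Figure D2:**
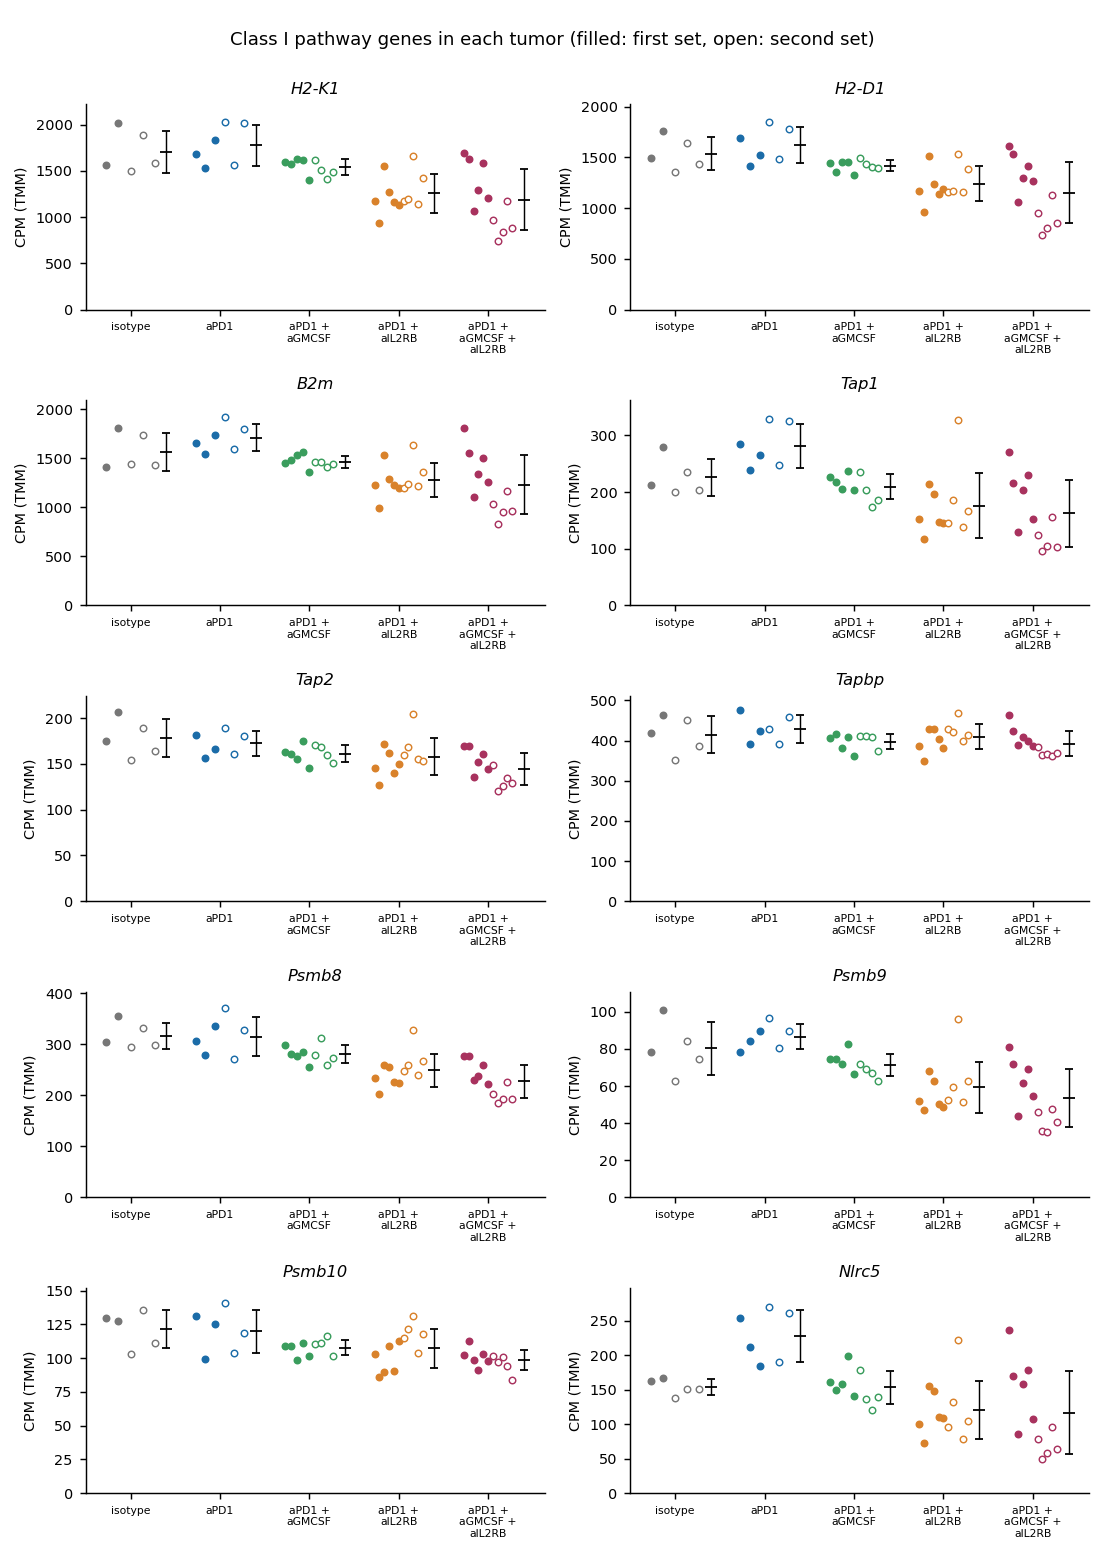
Level of each member in every tumor, in TMM-normalized CPM on axes that start at 0, by group. Filled points are first set and open points second set tumors, and the bar gives mean ± SD. Nlrc5 lies at 138 to 167 CPM in isotype and at 184 to 270 in aPD1. The second set of the double blockade holds the lowest tumor of every member except Tapbp.

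Blockade of GM-CSF on top of aPD1 left all 10 fold changes against aPD1 below 0, and none passed the test. Tap1 was at 173 to 237 CPM with a median of 205 in aPD1 + aGMCSF, and at 238 to 330 CPM in aPD1. The groups of Tap1 did not overlap, which was so in the lower direction for 2.20% of all genes. Its log2 fold change was -0.43 ± 0.18 (adjusted p = 0.11). Nlrc5 was at 121 to 198 CPM with a median of 149, and overlapped with aPD1 through its highest tumor, replicate 4, at a log2 fold change of -0.57 ± 0.23 (adjusted p = 0.093). The fold changes of the other members ran from -0.10 for Tap2 to -0.28 for Psmb9. The median of the members was -0.20, against 0.0066 over all genes.

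At an unadjusted p under 0.05, 5 members were lower in aPD1 + aGMCSF (B2m, Tap1, Psmb8, Psmb10 and Nlrc5), where 27.6% of all genes passed that mark in either direction. After adjustment edgeR called 0 members against a background of 13.5%. DESeq2 also called 0 and had 7 members under 0.05 before adjustment, where 27.7% of the genes it tested were. With only these 2 groups in the fit 5 members were called, and 10.5% of genes were called lower. In the second set alone Nlrc5 was called at -0.76 ± 0.25 (adjusted p = 0.042), where 11.1% of genes were lower. In the first set no member was called, with Nlrc5 at -0.42 ± 0.23 and 0.069% of genes lower. Marker sums were lower as well and did not overlap: the macrophage genes summed to 1794 to 2215 CPM in aPD1 + aGMCSF and 2373 to 4595 in aPD1, and the T and NK cell genes to 32.3 to 82.0 and 82.9 to 188. The 4 granulocyte genes summed to 8.71 to 17.01 and 17.03 to 42.9 CPM.

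With IL2RB blockade on top of aPD1 the class I genes themselves were lower. In aPD1 + aIL2RB 7 of the 10 members fell against aPD1 and none rose, where 14.5% of all genes fell. H2-K1 was at 937 to 1661 CPM with a median of 1180, against 1532 to 2029 in aPD1. Of the 11 tumors, 9 lay below every aPD1 tumor, and replicates 3 and 9 lay within the aPD1 range. The log2 fold change of H2-K1 was -0.50 ± 0.12 (adjusted p = 0.0021), a level 0.707 times that of aPD1. H2-D1 fell to 0.763 times (-0.39 ± 0.11, adjusted p = 0.0078) and B2m to 0.750 times (-0.41 ± 0.11, adjusted p = 0.0024). B2m was at 999 to 1633 CPM with a median of 1230, and its fold change lay between those of both heavy chain genes.

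Of the transporter and loading genes Tap1 alone was called. It had 116 to 328 CPM with a median of 152 in aPD1 + aIL2RB. The highest value belonged to replicate 9, which was the highest tumor of the group for all 10 members, and the next highest had 213 CPM. Tap1 fell to 0.624 times the aPD1 level (-0.68 ± 0.17, adjusted p = 0.0024). Tap2 was at 127 to 205 CPM against 156 to 190 in aPD1 and did not pass the test (-0.13 ± 0.07, adjusted p = 0.22). Tapbp, at 348 to 470 CPM against 393 to 475, did not either (-0.06 ± 0.06, 95% interval -0.18 to 0.05). Whether the fold change of Tap1 differs from that of Tap2 was not tested.

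Of the immunoproteasome subunits, the chymotrypsin-like subunit encoded by Psmb8 fell to 0.792 times its aPD1 level (-0.34 ± 0.08, adjusted p = 0.0013). It was at 203 to 328 CPM with a median of 247, against 270 to 370 in aPD1. Psmb9 fell to 0.684 times (-0.55 ± 0.14, adjusted p = 0.0020), from 78.5 to 96.6 CPM in aPD1 to 47.2 to 96.1 CPM with a median of 52.7. In both genes replicate 9 lay within the aPD1 range. Psmb10 was at 85.8 to 131 CPM against 99.4 to 141 and did not pass the test (-0.16 ± 0.07, adjusted p = 0.10).

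Nlrc5 had the lowest fold change of the 10 members. It was at 72.2 to 222 CPM with a median of 109 in aPD1 + aIL2RB, against 184 to 270 in aPD1, and only replicate 9 reached the aPD1 range. It fell to 0.528 times the aPD1 level (-0.92 ± 0.22, adjusted p = 0.0014). The median over the members was -0.40, against 0.0036 over all genes. Within the sets the calls held: 8 members were called lower in the first set (the same 7 and Psmb10 at -0.27 ± 0.09), where 8.84% of genes were, and 7 in the second, where 13.3% were. Leaving out any 1 tumor gave 7 or 8 calls. Markers of several leukocytes fell with them: all 7 of 7 T and NK cell genes, with Cd8a at -3.73 ± 0.53, all 4 pan-leukocyte genes, and 4 of 5 macrophage genes. The summed level of the macrophage genes was 1659 to 2557 CPM in aPD1 + aIL2RB and 2373 to 4595 in aPD1. That of 4 granulocyte genes was 5.69 to 16.01 against 17.03 to 42.9 CPM and that of 4 B cell genes 0.729 to 3.70 against 5.29 to 13.7, with no overlap, although 1 of 3 granulocyte and 2 of 4 B cell genes tested were called. Of the epithelial genes Cdh1, which encodes E-cadherin, fell (-1.197 ± 0.26, from 6.04 ± 2.20 CPM in aPD1 to 2.63 ± 1.197). Shisal2b, the study's marker of MC38 cells, rose (0.70 ± 0.18).

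Under double blockade 9 of the 10 members fell against aPD1, all but Tapbp, where 14.3% of all genes fell. Within the first set 1 member was called (Psmb8), where 2.45% of genes were, and within the second all 10, where 16.7% were. H2-K1 was at 739 to 1692 CPM with a median of 1169 and fell to 0.669 times the aPD1 level (-0.58 ± 0.12, adjusted p = 4.4e-04). H2-D1 had a fold change of -0.50 ± 0.11 and B2m one of -0.47 ± 0.10. Both heavy chain genes and B2m had tumors within the aPD1 range, all of them in the first set. Tap1 was at 96.7 to 271 CPM with a median of 153 and fell to 0.576 times (-0.80 ± 0.17, adjusted p = 4.9e-04). Tap2, which had not passed the test under IL2RB blockade alone, fell to 0.839 times (-0.25 ± 0.07, adjusted p = 0.0082). Tapbp was at 0.915 times (-0.13 ± 0.06, adjusted p = 0.088).

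The immunoproteasome genes were all lower under double blockade. Psmb8 was at 185 to 277 CPM with a median of 225, and 9 of the 11 tumors lay below the lowest aPD1 tumor. It fell to 0.721 times (-0.47 ± 0.08, adjusted p = 2.2e-05), the smallest p among the members. Psmb9 fell to 0.617 times (-0.70 ± 0.14, adjusted p = 1.5e-04) and Psmb10 to 0.822 times (-0.28 ± 0.07, adjusted p = 0.0032). Nlrc5 ranged from 49.7 to 236 CPM with a median of 95.4 and fell to 0.510 times (-0.97 ± 0.22, adjusted p = 8.6e-04). The median over the members was -0.49, against 0.011 over all genes. The same leukocyte lists had 7 of 7 T and NK cell, 4 of 4 pan-leukocyte and 4 of 5 macrophage genes called lower under double blockade, as were the epithelial genes Cdh1 (-1.57 ± 0.26) and Epcam (-2.05 ± 0.76). The 3 comparisons with aPD1 share the same 6 aPD1 tumors and are not independent of each other.

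**Figure D3:**
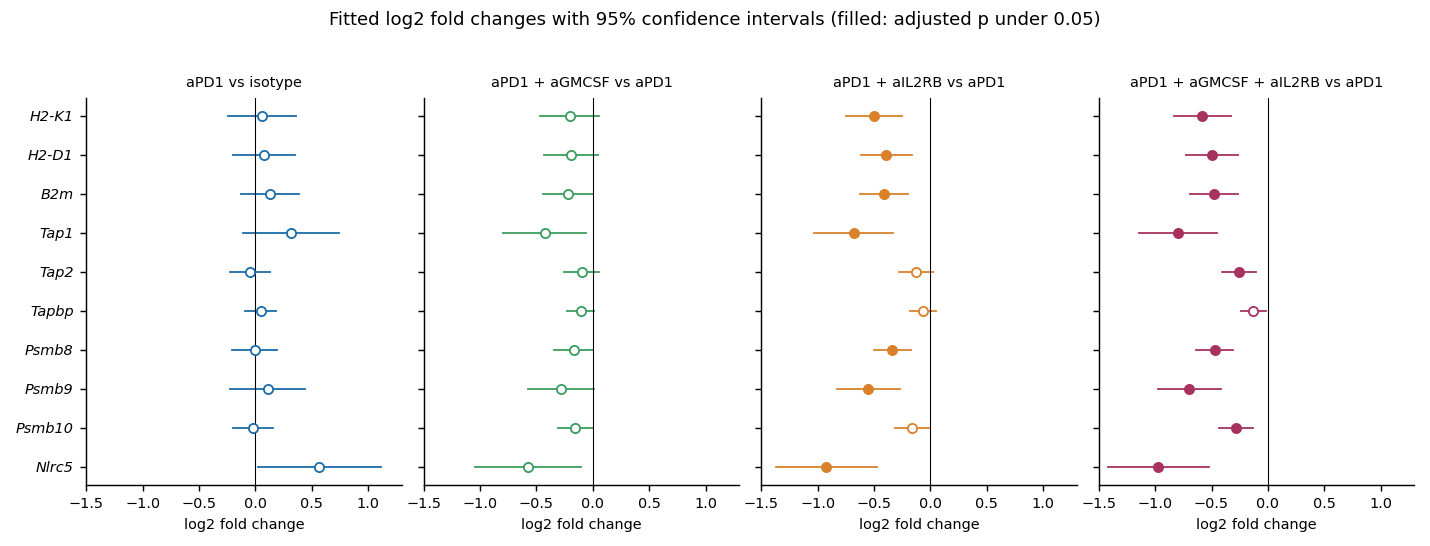
Fitted log2 fold changes of the 10 members with 95% confidence intervals in 4 comparisons, filled where the adjusted p was under 0.05. No member is filled for aPD1 against isotype or for aPD1 + aGMCSF against aPD1, 7 are filled for aPD1 + aIL2RB and 9 for the double blockade against aPD1.

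Against isotype, the comparison that shows where blockade leaves the pathway relative to tumors without aPD1, fewer members differed. In aPD1 + aGMCSF 0 members were called, as were 0.0% of all genes, and 1 (Psmb10) had an unadjusted p under 0.05 by edgeR, where 5.54% of genes did. DESeq2 called 0 and had 1 under 0.05, where 4.26% of the genes it tested were. In aPD1 + aIL2RB 1 member was called, Psmb8 at 0.788 times the isotype level (-0.34 ± 0.09, adjusted p = 0.017), where 1.51% of genes were lower. Within the first set 4 members were called (H2-K1, Psmb8, Psmb9 and Psmb10), where 1.27% of genes were lower, and within the second 0, where 0.783% were. The pooled call was lost without isotype replicate 2 or without isotype replicate 4, which left 0 members, and 3 members were called without aPD1 + aIL2RB replicate 9. Under double blockade 7 members were lower than in isotype (H2-K1, H2-D1, B2m, Tap2, Psmb8, Psmb9 and Psmb10), where 4.51% of genes were. Within the first set 1 member was called lower than in isotype (Psmb8, -0.40 ± 0.10, adjusted p = 0.031), where 1.0% of genes were, and within the second 8 were (H2-K1, H2-D1, B2m, Tap1, Tap2, Psmb8, Psmb9 and Nlrc5), where 6.52% were. Without isotype replicate 2, or without isotype replicate 4, 2 members were called in the fit over both sets. The summed level of 4 endothelial marker genes moved the other way, at 165.6 to 213.0 CPM under double blockade against 116 to 159.7 in isotype with no overlap. Psmb8 had 294, 299, 304, 331 and 354 CPM in isotype and at most 277 CPM under double blockade. Its groups did not overlap, which was so in the lower direction for 0.797% of genes, and its fold change was -0.48 ± 0.08 (adjusted p = 4.2e-04). H2-K1 was at 0.696 times the isotype level (-0.52 ± 0.13, adjusted p = 0.011). Over both sets Nlrc5 was not called against isotype in any blocked group, with fold changes of -0.01 ± 0.25, -0.35 ± 0.24 and -0.40 ± 0.24 for aGMCSF, aIL2RB and both.

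The blocked groups were also compared with each other. aPD1 + aIL2RB against aPD1 + aGMCSF gave 0 called members, where 1.52% of genes were called. By edgeR 4 members had an unadjusted p under 0.05, where 13.5% of genes did, and DESeq2 called 0 and also had 4, where 13.6% of the genes it tested did. The double blockade against aPD1 + aGMCSF gave 1, Psmb8 at -0.30 ± 0.07 (adjusted p = 0.020), where 1.15% of genes were lower. Within the first set 0 members were called, where 0.161% of genes were lower, and within the second 8 (all but Tapbp and Psmb10), where 4.93% were. Without double blockade replicate 1 there were 5 calls, and without replicate 2 or 5 there were 3. The double blockade against aPD1 + aIL2RB gave 0, with a background of 0.00591%, and 1 member (Tap2) under an unadjusted p of 0.05 by edgeR, where 7.16% of genes were. DESeq2 called 0 and had 1, against 5.34% of the genes it tested. For H2-K1 that difference was -0.08 with a 95% interval of -0.30 to 0.13, and for Nlrc5 it was -0.05 with an interval of -0.44 to 0.34. Whether the effects of both antibodies under aPD1 add up was tested as an interaction. For the members 0 were called and 0 had an unadjusted p under 0.05, by edgeR and by DESeq2. By edgeR 8.34% of all genes were called and 23.4% had an unadjusted p under 0.05. The shares by DESeq2 are not given. The interaction of Nlrc5 was 0.52 with an interval of -0.09 to 1.13.

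The pooled values of the double blockade hid a difference between the 2 sets. In the first set the 6 double blockade tumors had 1071, 1205, 1294, 1586, 1634 and 1692 CPM of H2-K1, and in the second set the 5 had 739, 842, 880, 967 and 1169 CPM. The sets overlapped only through the highest tumor of the second and the lowest of the first. Nlrc5 had 86.0, 107, 158, 170, 179 and 236 CPM in the first set and 49.7, 58.1, 64.6, 78.6 and 95.4 in the second, and B2m averaged 1431 ± 248 against 990 ± 124 CPM. The 1 call of the first set against aPD1 was Psmb8 at -0.29 ± 0.08 (adjusted p = 0.040). Within the second set the fold changes ran from -0.23 ± 0.07 for Tapbp and -0.36 ± 0.10 for Psmb10 to -1.38 ± 0.20 for Tap1 and -1.81 ± 0.24 for Nlrc5. In the first set Nlrc5 was at -0.47 ± 0.23 and H2-K1 at -0.25 ± 0.13.

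The difference of the fold change between the sets was itself tested. It was called for 6 members (H2-K1, H2-D1, B2m, Tap1, Psmb9 and Nlrc5), where 8.38% of 18068 genes were called. For H2-K1 the difference, second minus first, was -0.77 ± 0.20 (adjusted p = 0.012) and for Nlrc5 it was -1.33 ± 0.36 (adjusted p = 0.016). Against aPD1 + aIL2RB, 8 members differed in their effect between the sets, where 2.03% of genes did: the double blockade was above aPD1 + aIL2RB in the first set for all 10 members, at 0.23 ± 0.11 for H2-K1, and below it in the second, at -0.52 ± 0.11. None of these first set differences passed the test, as for 0.0% of genes, and 8 of the second set differences did, where 1.51% of genes were called lower. Against aPD1 + aGMCSF the difference was called for H2-D1 alone (-0.64 ± 0.15, adjusted p = 0.032), where 0.775% of genes were called. The fold change of aPD1 + aIL2RB against aPD1 did not differ between the sets by the test for any member, with 0 called and 0.0941% of genes called. The set alone, averaged over groups, was called for 0 members and for 25.1% of all genes. The sets were known from earlier results of these data, so this share cannot test the split. For the same reason the p-values of differences between the sets are not those of a split fixed beforehand. Markers of leukocytes and of endothelium moved with this difference. In the double blockade the T and NK cell genes summed to 12.4 to 89.1 CPM in the first set and to 0.719 to 5.19 in the second, the pan-leukocyte genes to 401 to 889 and 312 to 417, the macrophage genes to 2170 to 3040 and 1414 to 1643, and the granulocyte genes to 11.02 to 29.6 and 4.50 to 9.35. The 4 endothelial genes summed to 183.0 to 213.0 CPM in the first set and to 165.6 to 182.1 in the second. Their part in the class I difference was not tested, and the origin of the sets cannot be told from the labels.

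**Figure D4:**
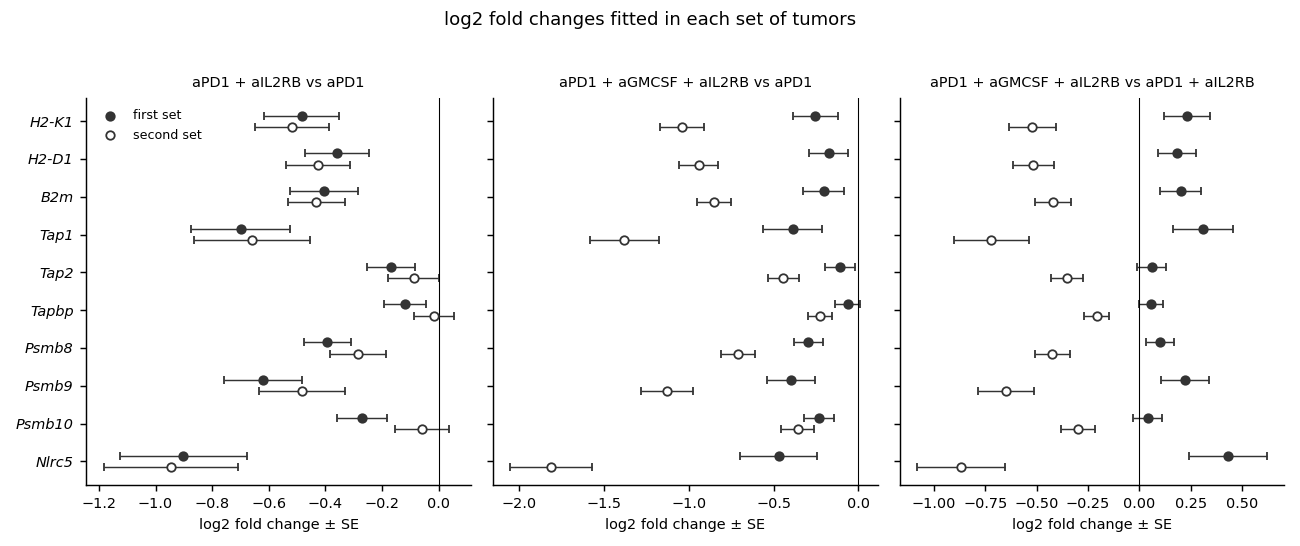
Log2 fold changes ± SE of the 10 members fitted within the first set (filled) and the second set (open). The 2 sets lie close together for aPD1 + aIL2RB against aPD1 and apart for the double blockade, where Nlrc5 is at -0.47 in the first set and at -1.81 in the second against aPD1.

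The exchange of catalytic subunits was followed as the count of each immunoproteasome gene over that of the constitutive subunit it replaces, within each tumor: Psmb8 over Psmb5, Psmb9 over Psmb6 and Psmb10 over Psmb7. Ratios of counts depend on gene lengths and were compared only between groups. Against aPD1 the ratio Psmb8/Psmb5 was 4.67 to 5.68 in aPD1, 3.47 to 4.81 in aPD1 + aIL2RB and 3.06 to 5.08 under double blockade. In aPD1 + aIL2RB 3 tumors, and under double blockade 3 tumors of the first set, lay above the lowest aPD1 tumor. The mean log2 ratio was lower by -0.31 in aPD1 + aIL2RB and by -0.39 under double blockade (both adjusted p = 0.013, two-sided exact permutation tests adjusted over 21 tests). Psmb9/Psmb6 was 1.19 to 1.35 in aPD1, 0.952 to 1.34 in aPD1 + aGMCSF, 0.764 to 1.34 in aPD1 + aIL2RB and 0.617 to 1.49 under double blockade. It was lower than in aPD1 by -0.18 (adjusted p = 0.049), -0.42 (adjusted p = 0.013) and -0.53 (adjusted p = 0.027) by the same exact permutation tests. Within the sets the double blockade differences from aPD1 were unequal. For Psmb8/Psmb5 the difference was -0.21 in the first set and -0.61 in the second, and for Psmb9/Psmb6 -0.22 and -0.90. In the second set neither ratio overlapped with aPD1, and in the first Psmb9/Psmb6 ran from 0.735 to 1.49 against 1.19 to 1.33 in aPD1. In aPD1 + aIL2RB the differences were -0.28 and -0.36 for Psmb8/Psmb5, and -0.34 and -0.50 for Psmb9/Psmb6. For Psmb9/Psmb6 in aPD1 + aGMCSF they were -0.06 and -0.32. None of these within-set differences passed adjustment over 42 exact permutation tests (smallest adjusted p = 0.18), and the smallest unadjusted p that 5 against 3 tumors allow is 0.036. Whether the ratios' differences are unequal between the sets was not tested. In the fit over both sets, the call of Psmb9/Psmb6 in aPD1 + aGMCSF held in 3 of the 15 cases in which 1 tumor was left out. It was lost by an exact rank-sum test and with labels permuted within the sets. Psmb10/Psmb7 was 0.782 to 1.22 in aPD1 and did not pass the test against any blocked group.

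Against isotype, aPD1 changed no ratio by the exact permutation test, with log2 differences of 0.02 for Psmb8/Psmb5, 0.10 for Psmb9/Psmb6 and 7.9e-04 for Psmb10/Psmb7. These pooled values average opposite directions in the first and second set. They were -0.09 and 0.09 for Psmb8/Psmb5, -0.11 and 0.25 for Psmb9/Psmb6, and -0.17 and 0.14 for Psmb10/Psmb7. None of these passed adjustment either. The ratio Psmb8/Psmb5 was lower than in isotype by -0.29 in aPD1 + aIL2RB (adjusted p = 0.013) and by -0.37 under double blockade (adjusted p = 0.027, exact permutation tests). The double blockade call held in 13 of the 16 cases in which 1 tumor was left out. Within the first and second set the Psmb8/Psmb5 differences were -0.37 and -0.27 in aPD1 + aIL2RB, and -0.30 and -0.52 under double blockade. Both pooled ranges overlapped with that of isotype, which was 4.68 to 6.05, and the highest tumors were at 4.81 in aPD1 + aIL2RB and at 5.08 under double blockade. Psmb10/Psmb7 was 0.875 to 1.02 in isotype and 0.794 to 0.941 in aPD1 + aGMCSF, a difference of -0.17 (adjusted p = 0.048, exact permutation test), with -0.25 in the first set and -0.12 in the second. That call held in 4 of the 14 cases in which 1 tumor was left out. Psmb9/Psmb6 did not pass against isotype, at -0.32 in aPD1 + aIL2RB (adjusted p = 0.066) and -0.43 under double blockade (adjusted p = 0.081, exact permutation tests). With labels permuted within the sets, the double blockade was called against isotype in Psmb9/Psmb6 and in Psmb10/Psmb7. The denominators moved little. Psmb5 and Psmb7 were not called in any of the 3 comparisons of a blocked group with aPD1, and Psmb6 fell by 0.15 ± 0.06 in aPD1 + aIL2RB and by 0.22 ± 0.06 under double blockade on the log2 scale.

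**Figure D5:**
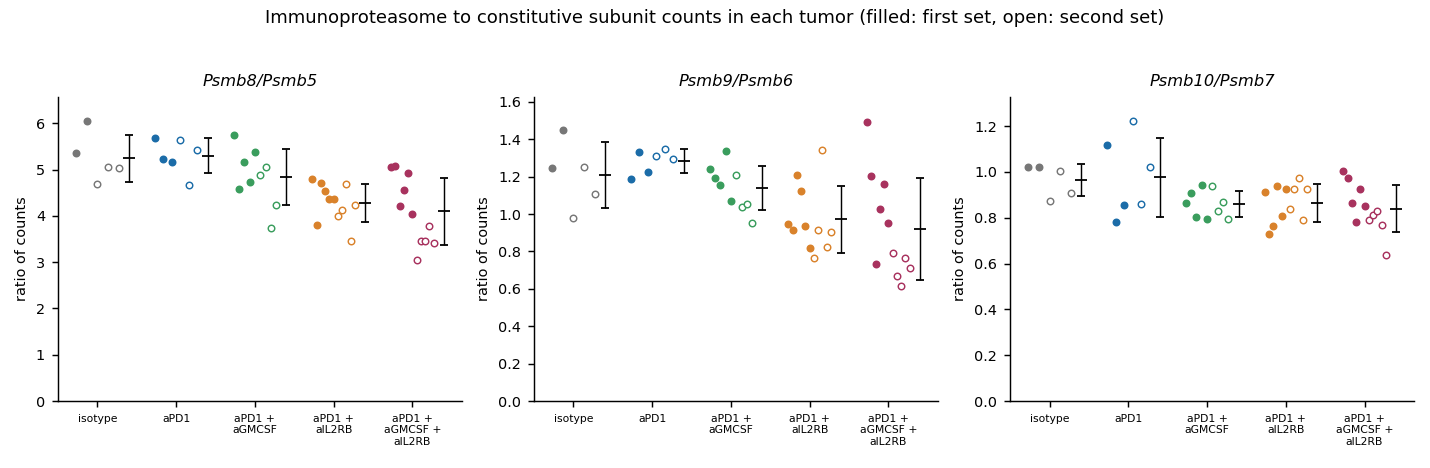
Ratio of immunoproteasome to constitutive subunit counts in every tumor, by group, on axes that start at 0. Filled points are first set and open points second set tumors, and the bar gives mean ± SD. Psmb8/Psmb5 is 4.67 to 5.68 in aPD1 and at most 4.81 in aPD1 + aIL2RB, while Psmb10/Psmb7 overlaps between all groups.

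The rest of the pathway was followed in lists of genes with related roles. Of 19 other class I and class I-like heavy chains 12 were tested: 2 rose with aPD1 against isotype, 2 fell in aPD1 + aGMCSF, 8 in aPD1 + aIL2RB and 10 under double blockade against aPD1. The shares over all genes in the same order were 6.17% higher, and 8.75%, 14.5% and 14.3% lower. H2-T23, which encodes the Qa-1 molecule read by NKG2A receptors, rose by 0.93 ± 0.29 with aPD1 (adjusted p = 0.034) and fell by 1.201 ± 0.23 in aPD1 + aIL2RB on the log2 scale. H2-T24 rose by 1.35 ± 0.25 and fell by 1.25 ± 0.20. The median of the 12 was 0.05 for aPD1 against isotype and -0.56 for aPD1 + aIL2RB against aPD1. Loading chaperones and trimming enzymes moved little: of 8, none passed the test for aPD1 against isotype, and in aPD1 + aIL2RB Tapbpl, a peptide editor related to tapasin, fell by 0.32 ± 0.08 on the log2 scale while Uggt1, a glucosyltransferase of glycoprotein quality control, rose by 0.16 ± 0.04.

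The proteasome genes outside the members were followed in 4 lists, and their counts are to be read against the 14.5% of all genes that fell in aPD1 + aIL2RB and the 14.3% that fell under double blockade. Of 11 other 20S core subunits, 0 were called for aPD1 against isotype and for aPD1 + aGMCSF against aPD1, 4 fell in aPD1 + aIL2RB (Psma1, Psma3, Psma6 and Psmb2, by 0.15 to 0.18 on the log2 scale) and 8 under double blockade. Of 18 subunits of the 19S regulator 5 fell in aPD1 + aIL2RB, with Psmc3 at -0.21 ± 0.05, and 7 under double blockade. Of 9 activators and assembly factors, Psme1 and Psme2 fell and Psmg2 rose in aPD1 + aIL2RB, and 3 fell under double blockade. Psme1, which encodes the alpha subunit of the interferon-inducible PA28 activator, fell by 0.34 ± 0.07 in aPD1 + aIL2RB and by 0.25 ± 0.07 in aPD1 + aGMCSF. Of the 3 constitutive catalytic subunits only Psmb6 was called, in aPD1 + aIL2RB and under double blockade against aPD1.

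Some genes that act on the class I promoters were called for aPD1 against isotype, where no member was. Over all genes 6.17% were called higher in that comparison. Irf8, Stat2 and Irf9 were picked from the called factors for the size of their fold changes. Among 17 promoter factors the interferon signal transducers Stat2 (0.79 ± 0.20, adjusted p = 0.013) and Irf9 (0.45 ± 0.15, adjusted p = 0.045) rose with aPD1 against isotype, as did Irf8 (0.84 ± 0.21, adjusted p = 0.011), a factor of myeloid cells. Against aPD1, 6 factors fell in aPD1 + aGMCSF, 8 in aPD1 + aIL2RB and 7 under double blockade, where 8.75%, 14.5% and 14.3% of all genes fell. Irf1, which binds interferon response elements, fell by 0.31 ± 0.11, 0.31 ± 0.10 and 0.52 ± 0.10 on the log2 scale in these groups. Of 9 interferon and receptor genes tested, 4 rose with aPD1 against isotype (Tyk2, Ifnar2, Jak1 and Ifngr2), where 6.17% of all genes did, and against aPD1 3 fell in aPD1 + aGMCSF, 4 in aPD1 + aIL2RB and 5 under double blockade. Ifng, the gene of interferon gamma, was at 0.403 to 2.74 CPM in isotype, 3.23 to 6.08 in aPD1 and 0.0911 to 3.65 in aPD1 + aIL2RB. It was not called for aPD1 against isotype (1.53 ± 0.64, adjusted p = 0.13) and fell by 2.28 ± 0.51 on the log2 scale in aPD1 + aIL2RB against aPD1 (adjusted p = 6.8e-04).

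The genes whose level ran most like the members were named by Pearson correlation over the 42 tumors with the mean standardized log2 CPM of the 10 members, among 12442 genes. The tumors share treatment groups and sets, and the values describe these libraries. The 5 genes outside the members with the highest r were H2-T22 (0.952), a class I-like heavy chain, H2-DMb1 (0.942) and H2-DMa (0.938), the chains of the class II peptide editor, Gbp3 (0.941), an interferon-inducible guanylate-binding protein, and Serpina3g (0.925), a serpin. Each member was also correlated with the mean of the other 9, which does not hold it: r was 0.911 to 0.960 for 8 members, 0.741 for Tapbp and 0.689 for Psmb10, so these 2 followed the others least. In aPD1 + aIL2RB against aPD1, H2-T22 changed by -0.39 ± 0.11, H2-DMa by -1.24 ± 0.21, Gbp3 by -0.89 ± 0.24 and Serpina3g by -2.16 ± 0.40 in log2 fold change.

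Several members share sequence with a neighbor or copy, and their counts were divided by estimation. Counts of H2-K1 were not whole in 40 tumors and those of H2-D1 in 39, and H2-K1 held 31.9% of the counts of the 25 class I genes in the table, with H2-D1 close to it. With all class I heavy chain genes added up, the log2 fold change was -0.48 for aPD1 + aIL2RB against aPD1 (adjusted p = 0.0038) and -0.56 for the double blockade (adjusted p = 8.8e-04), close to that of H2-K1. The summed count of these 25 genes was still not whole in 39 tumors. Counts of H2-T22, the gene outside the members with the highest r, were not whole in 40 tumors. Tap1 and Psmb9 had counts that were not whole in 37 tumors each, while their sum was whole in all 42 within a tolerance of 0.01. The sum of both fell by 0.65 on the log2 scale in aPD1 + aIL2RB (adjusted p = 0.0022) and by 0.77 under double blockade (adjusted p = 3.5e-04). Counts of Tap2 and Tapbp were not whole in 36 tumors each, and those of B2m, Psmb8, Psmb10 and Nlrc5 were whole in every tumor.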

How the data were processed

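RNA from 42 MC38 tumors in 5 treatment groups was measured by poly(A) RNA-seq. The authors aligned reads with Bowtie (1.2.3 in the submitters' processing notes) to transcriptomes of the Collaborative Cross founders built on GRCm38/mm10 with GENCODE annotation, and deposited expected counts per gene, estimated with gbrs, summed over haplotypes and not normalized. Of the values, 15.2% are not whole. Of 26811 genes, 26629 have a symbol. Reads that fit several genes are divided by the estimation, which matters for H2-K1, H2-D1, Tap1, Psmb9, Tap2 and Tapbp. No sample was left out.

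Counts were rounded. edgeR 4.0.16 (R 4.3.3) was used with filterByExpr (minimum count 10, minimum total 15), TMM and quasi-likelihood tests with all 42 tumors in 1 fit, with Benjamini-Hochberg adjustment over 16932 genes in each comparison and a threshold of 0.05. SE is the log2 fold change divided by the square root of F. Ratios of counts were compared by two-sided exact permutation tests. DESeq2, the study's tool, served as an alternative, as did other scalings and filters, the replicate number as a block, the set as a term, each set alone, only the groups compared, and each tumor left out in turn. Adding up Tap1 and Psmb9, and the ratios within each set, were chosen after seeing the data. On simulated data for aPD1 against isotype, 151 of 200 genes changed 2-fold were recovered with 7 false calls among 16684 genes. Tumors of 1 group differed by more than sampling noise in every pair, by a chi-square over genes of at least 5.42 for each degree of freedom.

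The members, the lists and the 2 sets were chosen with earlier results of these data known. Named genes were all 10 members, at most 4 genes per list with the largest fold change for aPD1 against isotype or, where none passed, for aPD1 + aIL2RB against aPD1, and the 5 genes most like the members. Irf1 and Ifng were chosen after their values were seen, and Psmb5 and Psmb7 are partners in a ratio. The values of 1 gene of the lists are not reported here.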

Additional observations from a re-analysis of the deposited data

Results flagged for a closer look

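The effect of the double blockade differed between the 2 sets of tumors, by a test of the difference of the log2 fold change, second minus first set (edgeR, interaction term, adjusted over 18068 genes). Against aPD1 the differences were -0.77 ± 0.20 (SE) for H2-K1, -0.75 ± 0.17 for H2-D1, -0.63 ± 0.17 for B2m, -0.97 ± 0.29 for Tap1, -0.72 ± 0.22 for Psmb9 and -1.33 ± 0.36 for Nlrc5. Their adjusted p ran from 0.0052 to 0.036. Against aPD1 + aGMCSF the difference of H2-D1 was -0.64 ± 0.15 (adjusted p = 0.032). Against aPD1 + aIL2RB the differences were -0.76 ± 0.17 for H2-K1, -0.71 ± 0.14 for H2-D1, -0.63 ± 0.14 for B2m, -1.04 ± 0.25 for Tap1, -0.42 ± 0.11 for Tap2, -0.53 ± 0.11 for Psmb8, -0.88 ± 0.19 for Psmb9 and -1.31 ± 0.30 for Nlrc5. Their adjusted p ran from 0.012 to 0.030. These comparisons share the double blockade tumors, and the sets were known from earlier results of these data. The T and NK cell, pan-leukocyte and macrophage markers of these tumors were also lower in the second set, and their part in these differences was not tested.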

How the results depend on the processing

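The 7 and 9 members called in aPD1 + aIL2RB and under double blockade against aPD1 stayed within 1.5 times those numbers under the other scalings and filters, DESeq2 and each left-out tumor. Counts of called members that moved more were as follows. With only the groups compared in the fit, 1 was called for aPD1 against isotype, 5 for aPD1 + aGMCSF against aPD1, 2 for aPD1 + aIL2RB and 4 for the double blockade against isotype, and 1 for aPD1 + aIL2RB against aPD1 + aGMCSF, where 6.77% of all genes were called higher and then 10.5%, 1.47%, 3.6% and 1.92% lower. For aPD1 + aIL2RB against isotype, library size alone, the set as a term and DESeq2 each gave 2, the first set 4 and the second 0, where 1.29%, 2.10%, 1.93%, 1.27% and 0.783% of all genes were lower. The first set gave 1 for the double blockade against aPD1, 1 against isotype and 0 against aPD1 + aGMCSF, and the second gave 8 against aPD1 + aGMCSF and 8 against aPD1 + aIL2RB, where 2.45%, 1.0%, 0.161%, 4.93% and 1.51% of all genes were lower. The second set gave 1 for aPD1 + aGMCSF against aPD1, where 11.1% of genes were lower. For the double blockade against aPD1 + aGMCSF the set term and DESeq2 each gave 3, where 2.20% and 2.04% of genes were lower. The cause of these moves was not tested, beyond the fewer tumors in the fits of single sets and groups.

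Leaving out 1 tumor gave 0 to 3 calls for aPD1 + aIL2RB against isotype, 2 to 8 for the double blockade against isotype and 1 to 5 for it against aPD1 + aGMCSF. For aPD1 against isotype the log2 fold change of Tap2 then ran from -0.094 to 0.0058, of Tapbp from -0.0062 to 0.083, of Psmb8 from -0.058 to 0.029 and of Psmb10 from -0.073 to 0.030. Nlrc5 in aPD1 + aGMCSF against isotype ran from -0.065 to 0.033, Tapbp in aPD1 + aIL2RB against isotype from -0.069 to 0.028, and Psmb10 in aPD1 + aIL2RB against aPD1 + aGMCSF from -0.038 to 0.023. For the double blockade against aPD1 + aIL2RB, Tap1 ran from -0.22 to 0.015 and Nlrc5 from -0.21 to 0.076. Of ratios, Psmb8/Psmb5 ran from -0.021 to 0.072 for aPD1 and from -0.41 to -0.32 for the double blockade against isotype. Psmb9/Psmb6 ran from -0.21 to -0.15 for aPD1 + aGMCSF against aPD1, and against isotype from -0.39 to -0.25 for aPD1 + aIL2RB and from -0.51 to -0.36 for the double blockade. Psmb10/Psmb7 against isotype ran from -0.068 to 0.061 for aPD1, from -0.20 to -0.15 for aPD1 + aGMCSF, from -0.20 to -0.14 for aPD1 + aIL2RB and from -0.24 to -0.17 for the double blockade.

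Directions changed only for values that did not pass the test in the fit over all tumors. For aPD1 against isotype library size alone gave -0.027 for H2-K1, -0.0076 for H2-D1 and -0.038 for Tapbp. The first set gave -0.086 for H2-K1, -0.079 for H2-D1, -0.038 for Tapbp and -0.093 for Psmb9, and the second gave 0.077 for Tap2, 0.080 for Psmb8 and 0.068 for Psmb10. Psmb8 was at 0.0057 with the size factors of DESeq2 and at 0.0056 by DESeq2. In the second set Tapbp was at 0.012 for aPD1 + aGMCSF and 0.099 for aPD1 + aIL2RB against isotype and Psmb10 at 0.0084 for the latter, and against aPD1 + aGMCSF, aPD1 + aIL2RB had 0.049 for Tap2 and 0.098 for Psmb10. In the first set Tapbp was at 0.061 for the double blockade against aPD1 + aGMCSF. Against aPD1 + aIL2RB the first set gave the double blockade 0.23 for H2-K1, 0.18 for H2-D1, 0.20 for B2m, 0.31 for Tap1, 0.059 for Tap2, 0.055 for Tapbp, 0.098 for Psmb8, 0.22 for Psmb9, 0.039 for Psmb10 and 0.43 for Nlrc5. With library size alone the interaction was -0.0076 for Tapbp, -0.013 for Psmb8 and -0.016 for Psmb10.

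Replicate numbers did not pair the tumors: deviations from group means correlated at -0.17 to 0.19 (median 0.035) over 67 same-numbered pairs, and 8 of 42 tumors matched a tumor of their own number best. With the replicate block, edgeR called 6 members for aPD1 + aIL2RB and 9 for the double blockade against aPD1, 6 for the double blockade and 1 for aPD1 + aIL2RB against isotype, where 15.2%, 16.9%, 12.0% and 7.0% of all genes were lower, and the log2 fold change of Nlrc5 in aPD1 + aGMCSF against isotype was 0.12 and the interaction of H2-D1 -0.0061. For ratios the block allows no p under 0.031 and passes no adjustment: Psmb8/Psmb5 differed by -0.26 for aPD1 + aIL2RB and -0.19 for the double blockade against aPD1, and by -0.24 and -0.13 against isotype. With the block Psmb9/Psmb6 differed from aPD1 by -0.10 for aPD1 + aGMCSF, -0.38 for aPD1 + aIL2RB and -0.26 for the double blockade, and from isotype by 3.5e-04 for aPD1 + aGMCSF, and Psmb10/Psmb7 from isotype by -0.016 for aPD1 and -0.16 for aPD1 + aGMCSF. An exact rank-sum test lost the calls of Psmb9/Psmb6 for aPD1 + aGMCSF against aPD1 (-0.18) and of Psmb10/Psmb7 for aPD1 + aGMCSF against isotype (-0.17). With labels permuted within the sets the former was lost (-0.18) and the double blockade differed from isotype in Psmb9/Psmb6 (-0.50) and Psmb10/Psmb7 (-0.24). The interaction with only the groups compared was not run.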

Other observations

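The members ran together across the 42 tumors, also within treatment groups. Over the 45 pairs of members the Pearson correlation of log2 CPM ran from 0.54 to 0.98 with a median of 0.88. After the group means were subtracted it ran from 0.35 to 0.98 with a median of 0.88. H2-K1 and H2-D1 correlated at 0.98 before and 0.97 after the group means were removed. These tumors share sets and the same libraries for every gene, and the values are a description. Counts of H2-K1, H2-D1, Tap1 and Psmb9 were also divided by estimation, so their levels are not independent measures.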
